A study of Homo sapiens with 4 samples.

Results

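Long intergenic noncoding RNAs are transcripts that are spliced and polyadenylated like mRNAs, come from their own loci between protein-coding genes and have no known protein product. The named ones carry a LINC number from the gene nomenclature committee, mostly because nothing more is known of them, although some act on chromatin, on neighbouring genes or as partners of proteins and microRNAs. Many are made in a single cell lineage and at low levels, so their amounts differ widely between cancer cell lines.

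The LINC genes described here are the rows of the count table whose symbol is LINC followed by digits alone and whose counts, summed over the 4 libraries, reach 100. They number 168 of 2244 LINC genes in a table of 61806 genes, and 1007 of the 2244 have at least 1 count. They were chosen by their counts, the same counts that enter every comparison below, so their levels are given as a description. The 2 genes just inside the threshold were LINC01719 with 101 counts (30, 12, 45 and 14 in the control and CPYPP libraries of the breast line and then of the melanoma line) and LINC01311 with 100 (22, 17, 44 and 17). The 2 just outside were LINC01504 (2, 7, 47 and 43) and LINC01611 (3, 0, 51 and 45), with 99 each. One symbol, LINC01605, stands for 2 identifiers, which were kept as separate rows.

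RNA with a poly(A) tail was sequenced from MDA-MB-231, a breast cancer cell line, and MDA-MB-435, labelled as melanoma cells, both wild type, each as an untreated control and after 6 h of CPYPP. CPYPP is an inhibitor of the DOCK family of guanine nucleotide exchange factors, used here for the paraptosis it induces, a cell death with vacuoles in the cytoplasm, and its dose was 10 µM by the treatment description. Each condition is a single library without replicate, so each comparison within a line is between 2 libraries and not between conditions, and the p-values and intervals cover counting error only. Library totals ranged from 17196385 to 22663954 counts.

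The line labels were checked against marker genes. SOX10, a transcription factor of the melanocyte lineage, had 0 and 1 counts in the MDA-MB-231 libraries and 3031 and 707 in the MDA-MB-435 libraries. The epithelial adhesion gene EPCAM had 387 and 287 counts in MDA-MB-231 against 2 and 0 in MDA-MB-435. Of the other epithelial markers, CDH1 had 837 and 464 against 0 and 0, and KRT8 12813 and 9549 against 522 and 310. KRT18 was high in both lines, with 8212 and 5653 against 5740 and 4077. So were the mesenchymal markers VIM (38484 and 24404 against 98483 and 68113) and CD44 (27537 and 20016 against 36689 and 27990). DCT, a pigment enzyme gene, had 1 and 3 against 658 and 464. The other melanocyte markers did not set the lines apart in this way: TYR had 0 and 0 against 2 and 3 counts, MLANA 8 and 14 against 9 and 14, PMEL 34 and 29 against 13 and 4, and MITF 1585 and 690 against 1405 and 809.

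As a group the LINC genes were low. Their median level was 0.91 RPKM (counts divided by exonic length in kilobases and by library size, as the mean of the 4 libraries), against 6.11 RPKM for protein-coding genes with at least 100 counts, and it ran from 0.0695 to 23.7 RPKM. The median summed count was 266.5 against 2850. Between them they held 95407 counts, of which the 10 with the most counts held 32.9%. Their median exonic length was 4105 bases, the longest annotated transcript had a median of 4 exons, and 13 had a single exon. In GENCODE v29, 131 of the 168 were typed as lincRNA, 15 as processed transcript and 8 as transcribed unprocessed pseudogene.

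The name says intergenic, but 115 of the 168 overlapped another annotated gene, 99 of them a gene on the opposite strand and 18 a protein-coding gene, and 53 overlapped none. Overlap was judged from the start and end of each gene and not from exons. The strand setting of the counting is not stated, so reads of a LINC gene and of a partner on the other strand cannot be told apart. There were 6 pairs of LINC genes that overlapped each other, for example LINC01443 with LINC01444 and LINC00565 with LINC00452, and 5 of the pairs lay on opposite strands.

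The promoter windows of 4 LINC genes are given first, as examples of falls and a rise, as RefSeq sequence of build GRCh38.p14 from 250 bases before to 50 after the annotated start. LINC02783 and LINC01085 are those with a RefSeq window among the 6 lower after CPYPP in both lines, LINC01940 had one of the largest falls in MDA-MB-435, and LINC00641 had the lowest adjusted p of the 3 that rose in MDA-MB-231. The windows lie at chr1:17189539-17189838 on the plus strand for LINC02783, chr4:14111718-14112017 on the plus strand for LINC01085, chr2:238926220-238926519 on the minus strand for LINC01940 and chr14:21206851-21207150 on the minus strand for LINC00641. Capitals mark a heat shock element (TTCTTGAA from base 246) in LINC02783 and a core of the antioxidant response element (TGACTGTGC from base 46) in LINC01085, and none of the motifs searched is in the other 2 windows.
LINC02783: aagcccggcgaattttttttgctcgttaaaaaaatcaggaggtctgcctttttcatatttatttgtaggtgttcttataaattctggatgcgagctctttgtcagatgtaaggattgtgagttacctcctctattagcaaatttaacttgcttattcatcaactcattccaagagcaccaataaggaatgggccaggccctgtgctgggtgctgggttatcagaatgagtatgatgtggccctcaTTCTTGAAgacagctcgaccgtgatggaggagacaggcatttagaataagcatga
LINC01085: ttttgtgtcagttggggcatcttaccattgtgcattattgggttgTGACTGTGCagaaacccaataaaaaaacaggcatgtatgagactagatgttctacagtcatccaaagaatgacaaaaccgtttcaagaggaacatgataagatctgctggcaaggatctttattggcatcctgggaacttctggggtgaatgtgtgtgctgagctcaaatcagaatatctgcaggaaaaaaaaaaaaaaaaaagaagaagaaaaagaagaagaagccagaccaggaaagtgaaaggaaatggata
LINC01940: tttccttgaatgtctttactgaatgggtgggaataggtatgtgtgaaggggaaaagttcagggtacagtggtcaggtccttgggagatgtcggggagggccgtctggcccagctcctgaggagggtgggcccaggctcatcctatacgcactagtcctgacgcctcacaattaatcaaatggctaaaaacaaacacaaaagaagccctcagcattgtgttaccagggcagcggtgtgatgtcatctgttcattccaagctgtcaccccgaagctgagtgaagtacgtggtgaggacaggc
LINC00641: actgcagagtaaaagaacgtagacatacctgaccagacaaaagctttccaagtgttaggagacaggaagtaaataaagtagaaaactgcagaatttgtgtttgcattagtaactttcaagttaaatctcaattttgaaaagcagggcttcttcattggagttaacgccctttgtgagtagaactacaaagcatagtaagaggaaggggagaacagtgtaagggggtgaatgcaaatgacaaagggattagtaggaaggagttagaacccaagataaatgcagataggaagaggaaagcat

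Motifs of stress-response and lineage factors were searched on both strands in the promoter windows of the 108 LINC genes that have one and of all 27305 symbols in the RefSeq table. The AP-1 site (TGANTCA) was in 15.7% of the LINC windows and 7.76% of all windows. The antioxidant response element core (TGACNNNGC) was in 22.2% and 13.6%, and the heat shock element (GAANNTTC or TTCNNGAA) in 15.7% and 13.7%. The E-box of MITF type (TCACGTG or TCATGTG) was in 7.41% against 6.68%, the C/EBP-ATF element (TGATGNAA) in 0.926% against 3.67%, and the serum response element in 1.85% against 1.29%. A letter match is a description of the window and not a binding site, and AP-1 and antioxidant element matches can overlap in sequence. Among the 29 windows of LINC genes called lower in MDA-MB-435, 5 held an AP-1 site, 6 an antioxidant element and 5 a heat shock element. As shares of the 29, these were close to those of all 108 LINC windows, of which 17, 24 and 17 held the same motifs. The C/EBP-ATF element, the E-box of MITF type and the serum response element were each in 1 of the 29.

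Most of the LINC genes, 134 of 168, had more than 3 counts in a library of each line, but their control levels often differed. Called genes here and below are those with a fold change over 2 and a Benjamini-Hochberg adjusted p under 0.05 in the exact binomial test of the counts of 2 libraries, adjusted over all genes tested. Of the 168, 42 were higher in the MDA-MB-231 control than in the MDA-MB-435 control (25%, where 20.9% of all tested genes were) and 71 were higher in MDA-MB-435 (42.3%, where 22.2% were). A LINC gene made in a single line can reach the summed count through that line alone, so these counts are partly fixed by how the genes were chosen. At 3 counts or fewer in both libraries stood 22 LINC genes in MDA-MB-231 (13.1%, against 1.99% of other genes with at least 100 counts) and 12 in MDA-MB-435 (7.14%, against 3.55%).

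The LINC genes that most favoured MDA-MB-435 were LINC00839, LINC02915, LINC01694, LINC02119 and LINC02732. LINC00839 had 1 and 2 counts in MDA-MB-231, against 721 and 657 in MDA-MB-435, control first, a ratio of 673 between controls (95% interval 120.0 to 26600). LINC02915 had 3 and 2 counts against 2043 and 451, a ratio of 635 (217 to 3080). The ratio for LINC02119, with 1 and 0 counts against 393 and 61, was 367 (65.4 to 14500). All 3 were close to undetected in MDA-MB-231. LINC01694 had no counts in either MDA-MB-231 library against 1425 and 641 in MDA-MB-435. With the count of 0 set to 3, its control was 443-fold higher in MDA-MB-435, and the 95% interval of the ratio reached down to 360. LINC02732, also at 0 in both MDA-MB-231 libraries, had 831 and 434 counts and was 258-fold higher in the same way, with an interval down to 210.

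The reverse pattern was led by LINC00261, a transcript of the endoderm that lies 2356 bases from FOXA2, an endoderm transcription factor. LINC00261 had 789 and 418 counts in MDA-MB-231, against 0 and 1 in MDA-MB-435. With the count of 0 set to 3, its MDA-MB-231 control was 282-fold higher, with an interval down to 229. LINC01806, with 483 and 245 counts against none, was 173-fold higher in the same way, with an interval down to 140. LINC01929 (169 and 141 counts against 1 and 1), LINC00654 (150 and 67 against 1 and 0) and LINC00842 (214 and 161 against 3 and 2) had ratios between controls of 181 (32.1 to 7200), 161 (28.4 to 6390) and 76.5 (25.8 to 374).

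Per length, the 8 highest LINC genes were LINC00973, LINC00431, LINC01293, LINC02154, LINC02915, LINC02732, LINC00472 and LINC01444. LINC00973 was the highest by the mean of the 4 libraries, at 25.7 and 18.0 RPKM (control first) in MDA-MB-231, beside 33.6 and 17.4 RPKM in MDA-MB-435. LINC02154 stood at 27.7 and 26.3 RPKM in MDA-MB-435 and at 0.516 and 0.382 RPKM in MDA-MB-231. LINC00431 likewise stood at 29.7 and 27.3 RPKM against 0.264 and 0.1. LINC01293 went up to 31.2 RPKM in the CPYPP library of MDA-MB-435, and stood at 1.24 and 1.84 RPKM in MDA-MB-231. Of the 8, LINC00472 was higher in MDA-MB-231, at 8.85 and 7.79 RPKM against 4.26 and 2.40, and it had the most counts of any LINC gene, 9440 in all.

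**Figure D1:**
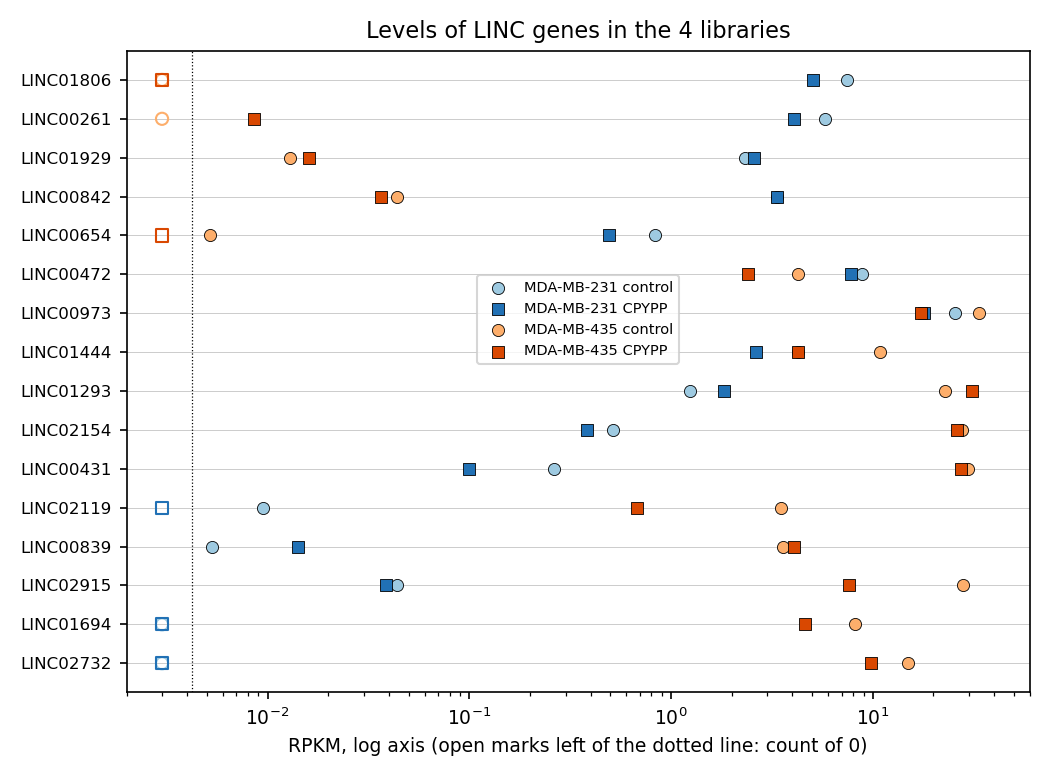
Level in RPKM (log axis) of 16 LINC genes in each of the 4 libraries, namely the 8 highest per length and the 5 that most favoured each control, 2 of which are in both sets; circles are controls and squares CPYPP, blue is MDA-MB-231 and orange MDA-MB-435, and open marks left of the dotted line are counts of 0. Genes at the top are found in MDA-MB-231 alone or nearly so, those at the bottom in MDA-MB-435, and LINC00973 is high in all 4 libraries.

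After CPYPP, LINC genes fell far more often than they rose, and most clearly in MDA-MB-435. Of the 149 tested there, a test that asked for 10 counts or more in either library, 45 were lower and 1 was higher. The 45 are 30.2% of those tested, where 6.52% of all tested genes were lower, and the 1 is 0.671%, where 3.17% were higher. In MDA-MB-231, 12 of 136 were lower (8.82%, where 3.09% of all tested genes were) and 3 were higher (2.21%, where 4.22% were). The median log2 fold change of the LINC genes tested was -0.53 in MDA-MB-435 and -0.19 in MDA-MB-231, beside -0.02 and -0.01 over all genes tested. The CPYPP library was below its control for 119 of 149 LINC genes in MDA-MB-435 (79.9%, where 51.4% of all tested genes were). In MDA-MB-231 it was below for 88 of 136 (64.7%, where 51.2% were).

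The filter on low counts let 6 LINC genes into the MDA-MB-435 comparison and 9 into that of MDA-MB-231 through the control library alone, and 0 and 1 through the CPYPP library alone. Too few counts kept 19 and 32 LINC genes out. A gene let in by its control alone has fewer counts after CPYPP by construction, and with 10 counts asked of both libraries 42 LINC genes were lower in MDA-MB-435 (29.4% of 143, where 4.12% of all genes were) and 10 in MDA-MB-231 (7.94% of 126, where 1.84% were). The 95% interval of the fold lay wholly below 1 for 77 and wholly above 1 for 11 of those tested in MDA-MB-435, and for 37 and 18 in MDA-MB-231. No share over all genes is given for these intervals. The calls take counting error into account and no difference between cultures: when cultures were assumed to vary with a coefficient of 0.2, 7 LINC genes were lower in MDA-MB-435 (4.7%, where 0.889% of all genes were). In MDA-MB-231, 0 were then lower, where 0.262% of all genes were, and 1 was higher. In bulk RNA, fewer cells that make a transcript and less of it per cell cannot be told apart.

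The share of each library that the 168 LINC genes took up needs no call gene by gene. That share was 0.15% of all counts in the MDA-MB-435 control (95% Clopper-Pearson interval 0.148% to 0.152%) and 0.102% after CPYPP (0.101% to 0.103%). In MDA-MB-231 it was 0.11% (0.108% to 0.111%) and 0.099% (0.0975% to 0.1%). The intervals of control and CPYPP do not overlap in either line, and they cover counting error only.

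Low expression alone was compared by setting the LINC genes beside all other genes in the same range of summed counts. In MDA-MB-435, 35.4% of the LINC genes with 100 or more but under 300 counts were lower (28 of 79), against 12.9% of the other genes in that range (236 of 1836). From 300 to under 1000 counts the shares were 31.8% (14 of 44) and 6.75%, and from 1000 to under 3000 counts 12.5% (3 of 24) and 2.17%. At the rate of other genes in the same ranges, 13.7 of the 149 LINC genes would have been lower, where 45 were, and 4.83 would have been higher, where 1 was. In MDA-MB-231 the corresponding numbers were 5.56 against 12 lower and 7.05 against 3 higher. The share of lower genes fell with rising counts among LINC and other genes alike, and the LINC share was the larger in each range below 3000 counts in both lines.

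**Figure D2:**
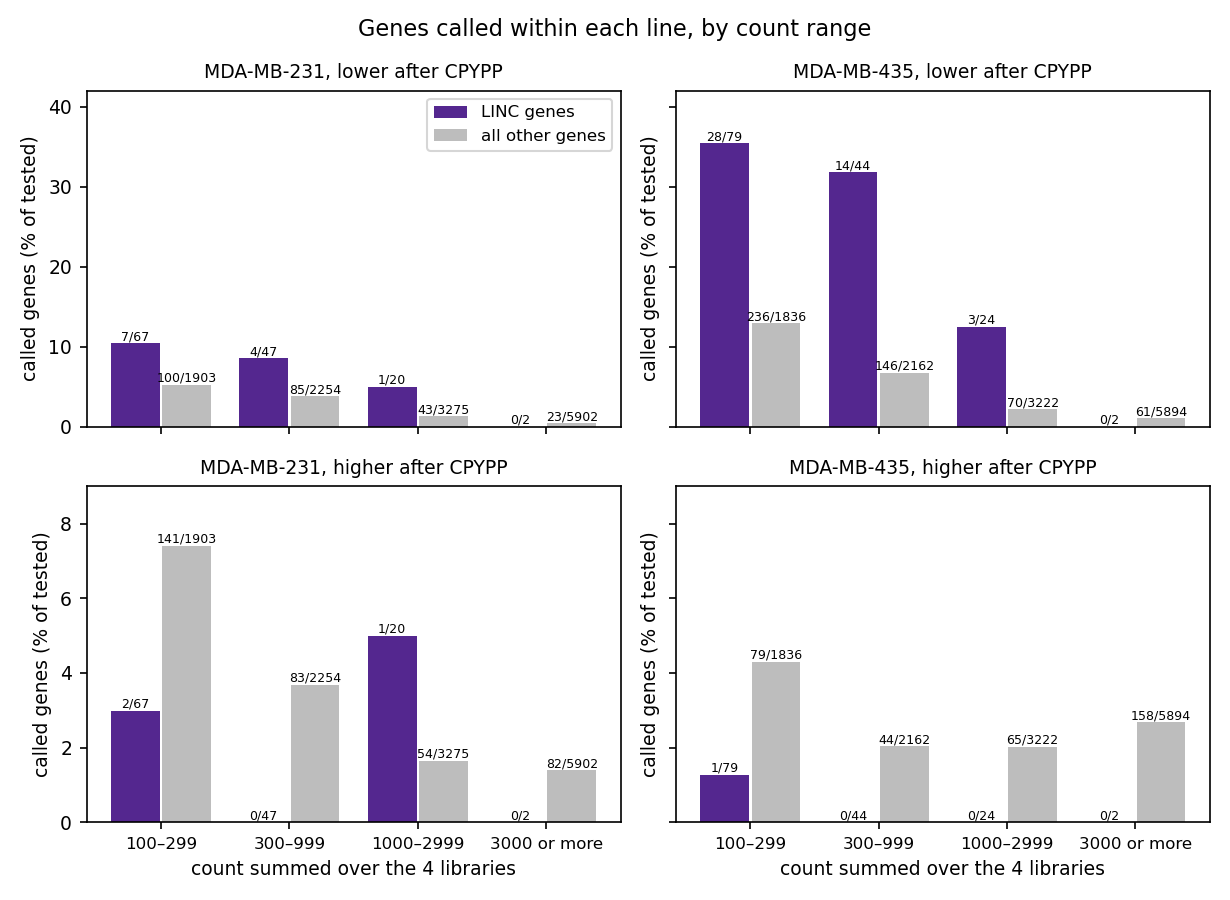
Share of tested genes called lower (top) and higher (bottom) after CPYPP in MDA-MB-231 (left) and MDA-MB-435 (right), for LINC genes and all other genes in 4 ranges of the count summed over the libraries; the numbers above the bars are genes called and tested. In MDA-MB-435, 28 of 79 LINC genes in the lowest range were lower, against 236 of 1836 other genes.

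Other classes of noncoding gene, apart from the SNHG genes, also had a larger share lower in MDA-MB-435 than protein-coding genes. With at least 100 counts, 16% of 306 antisense genes with a symbol ending in -AS and a number were lower there, 16.1% of 118 divergent transcripts ending in -DT and 20.4% of 265 other genes typed lincRNA, against 2.9% of 11507 protein-coding genes. Their median log2 fold changes were -0.41, -0.52 and -0.36, and that of the protein-coding genes was 0.04. The 21 SNHG genes, which are spliced hosts of small nucleolar RNAs, had 0 lower and 1 higher and a median of 0.13. In MDA-MB-231 the medians of the -AS, -DT and other lincRNA-type genes were -0.16, -0.18 and -0.13, near the -0.19 of the LINC genes, and that of the SNHG genes was -0.27. No test of LINC genes against these classes was made.

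**Figure D3:**
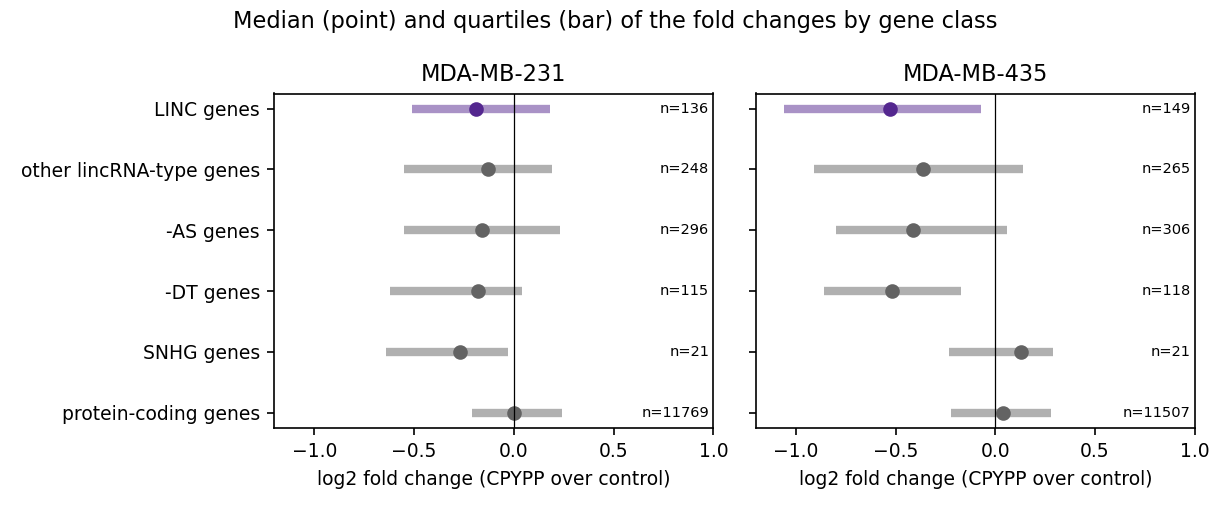
Median (point) and quartiles (bar) of the log2 fold change after CPYPP in each line for LINC genes, other lincRNA-type genes, -AS, -DT and SNHG genes and protein-coding genes, all with at least 100 counts over the 4 libraries; n is the number tested. LINC genes have the lowest median in MDA-MB-435, at -0.53, with -DT genes next at -0.52, and in MDA-MB-231 SNHG genes have the lowest, at -0.27. The classes are not matched for counts.

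In both lines 117 LINC genes could be tested. Of these 6 were lower in both lines, 5.13%, where 0.989% of the 14262 genes tested in both were, and 1 was higher in both, where 1.04% were. Of the 6, 4 had at least 10 counts in all 4 libraries, and the other two, LINC02783 and LINC00518, entered the test of a line through its control alone. None rose in the breast line and fell in the melanoma line, where 0.0912% of those genes were, or the other way round, where 0.0% were. The CPYPP library was below control in both lines for 68 of the 117 and above it in both for 18, and no share over all genes is given for these counts. The fold change was the more negative in MDA-MB-435 for 81. The median difference between the lines was -0.38 on the log2 scale, against 0.03 among other genes, which were not matched for counts. Other genes of 100 to under 300 counts had median log2 fold changes of -0.22 (melanoma line) and -0.01 (breast line). LINC genes of that range had -0.67 and -0.15. From 300 to under 1000 counts other genes had -0.16 and -0.05, and LINC genes -0.49 and -0.29. From 1000 to under 3000 counts other genes had -0.01 and -0.04, and LINC genes -0.38 and -0.11. These medians cover all genes tested in a line, not only those tested in both. Over the 117 genes the log2 fold changes of the lines had a Spearman correlation of 0.45 and a Pearson correlation of 0.49, as a description across genes that share libraries and depth.

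**Figure D4:**
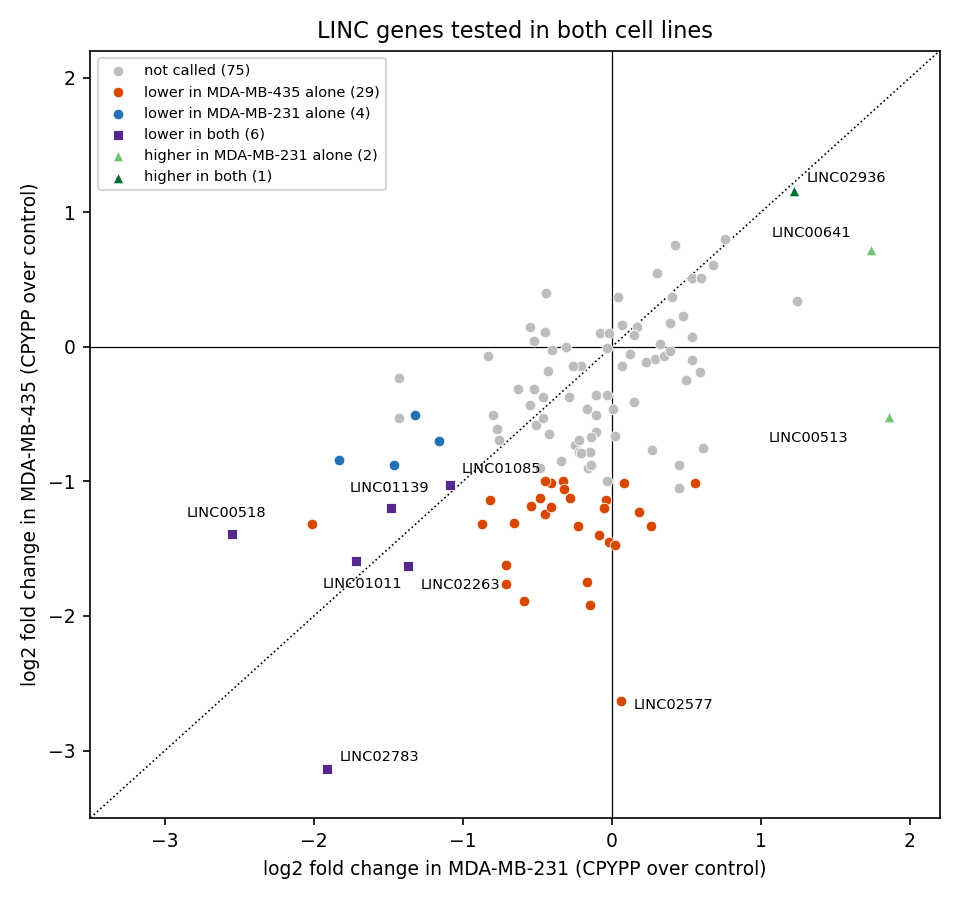
Log2 fold change after CPYPP in MDA-MB-231 (horizontal) and MDA-MB-435 (vertical) of the 117 LINC genes tested in both lines; colours and shapes show in which line a gene was called, and the dotted line marks equal change. Most points lie below the dotted line, 6 genes are lower in both lines, and LINC02577 is at 0.06 on the horizontal axis and -2.63 on the vertical axis.

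LINC02783, which lies 7511 bases from PADI1, a peptidylarginine deiminase gene, had the largest fitted fall in MDA-MB-435, where it entered the test through its control alone. Control and CPYPP libraries held 82 and 16 of its counts in MDA-MB-231, against 34 and 3 in MDA-MB-435. It was therefore 3.75-fold lower in MDA-MB-231 (95% interval 2.18 to 6.88, adjusted p = 3.18e-07) and 8.79-fold lower in MDA-MB-435 (2.76 to 44.7, adjusted p = 1.18e-05).

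LINC01139, also known as LINK-A, a transcript described as a partner of kinases in breast cancer, had 42 and 11 counts in MDA-MB-231, against 337 and 114 in MDA-MB-435. It was 2.8-fold lower (1.42 to 6.02, adjusted p = 0.00391) and 2.29-fold lower (1.85 to 2.86, adjusted p = 5.45e-15). Its control level was 7.49-fold higher in MDA-MB-435, and the intervals of the 2 folds overlap.

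LINC00518, one of the transcripts used in tests of pigmented skin lesions for melanoma, lies 9596 bases from TFAP2A, a transcription factor of the neural crest and epithelia. LINC00518 had 16 and 2 counts in MDA-MB-231, against 91 and 27 in MDA-MB-435. It was 5.86-fold lower in MDA-MB-231 (1.38 to 52.5, adjusted p = 0.0188), where it rests on 2 counts and entered the test through its control alone, and 2.61-fold lower in MDA-MB-435 (1.69 to 4.18, adjusted p = 1.51e-05). TFAP2A was also lower in both lines, with log2 fold changes of -1.06 and -1.07.

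LINC01011 overlaps NQO2, the gene of a quinone reductase, on the same strand, and the neighbours moved apart. LINC01011 had 45 and 10 counts in MDA-MB-231, against 62 and 16 in MDA-MB-435, 3.3-fold lower (1.64 to 7.34, adjusted p = 0.000701) and 3.01-fold lower (1.71 to 5.58, adjusted p = 9.94e-05). NQO2 had log2 fold changes of 0.48 and 1.45 and was higher by the test in MDA-MB-435. How reads in the shared stretch were counted is not stated, so the values of LINC01011 are uncertain.

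LINC02263 had 53 and 15 counts in MDA-MB-231, against 56 and 14 in MDA-MB-435, and was 2.59-fold lower (1.44 to 4.95, adjusted p = 0.00257) and 3.1-fold lower (1.7 to 6.03, adjusted p = 0.000171). LINC01085, the smallest fall of the 6, had 154 and 53 counts and 153 and 58 counts. It was 2.13-fold lower (1.55 to 2.97) and 2.05-fold lower (1.5 to 2.82). Control levels of both genes were alike in the lines, with ratios of 1.01 and 1.08. LINC01085 falls outside the rule for naming genes, which took the 5 largest falls, and is named because it completes the 6. GENCODE v29 types it as a transcribed processed pseudogene, so its reads may also fit a near-identical copy.

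The 1 LINC gene higher in both lines was LINC02936, the shortest of all at 561 exonic bases, 933 bases from the transporter gene SLC35F5. It had 24 and 41 counts in MDA-MB-231, against 22 and 38 in MDA-MB-435. It was 2.33-fold higher (1.38 to 4.03, adjusted p = 0.00308) and 2.23-fold higher (1.28 to 3.95, adjusted p = 0.00642), the only LINC gene called higher in MDA-MB-435. SLC35F5 itself had log2 fold changes of 0.07 and -0.06.

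**Figure D5:**
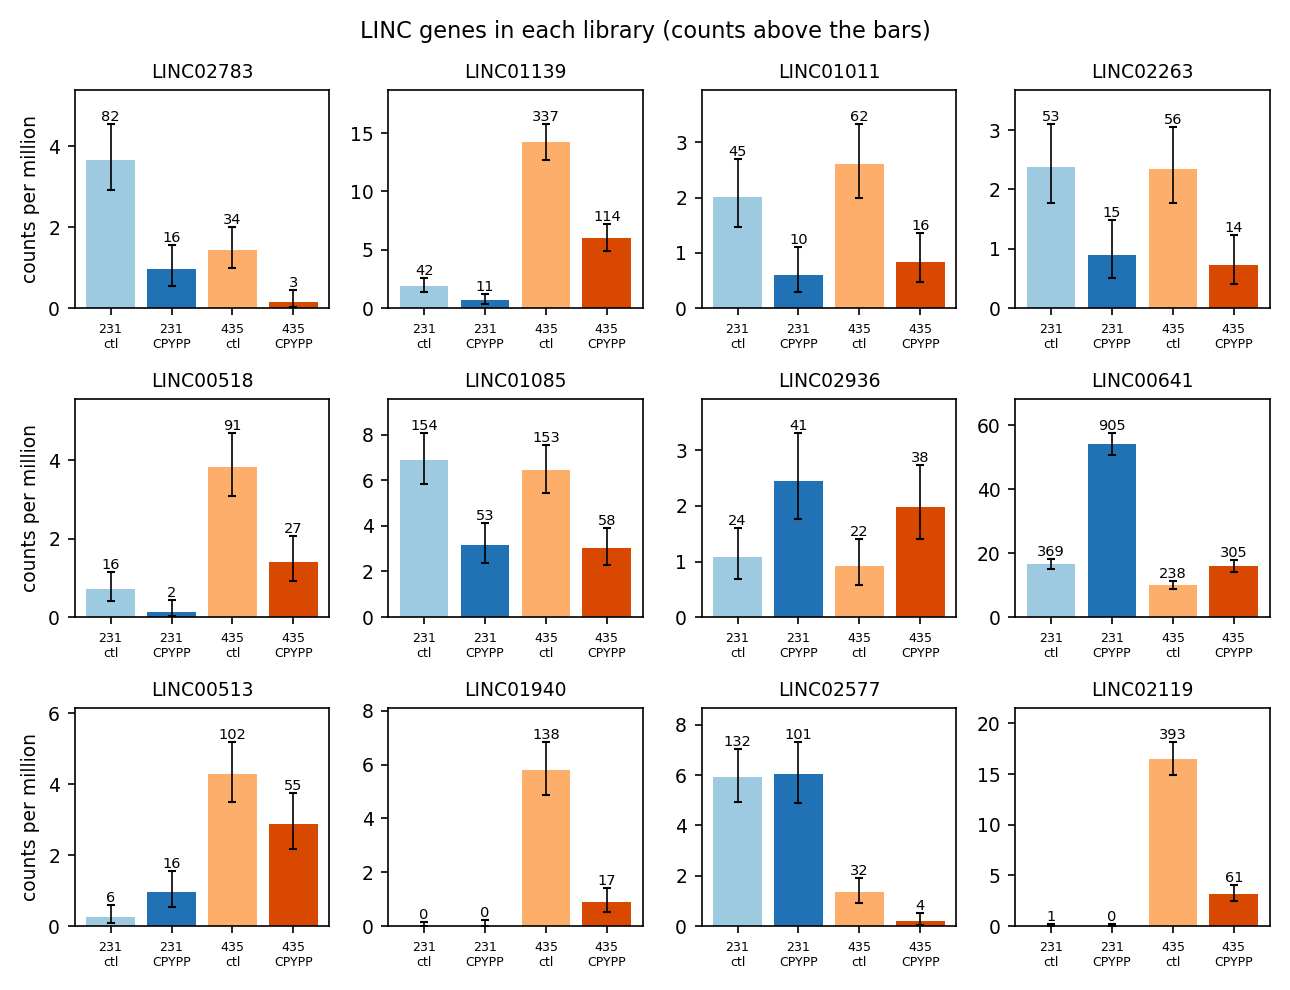
Counts scaled to library size (CPM) of 12 LINC genes in the 4 libraries, with the counts above the bars and error bars giving the exact 95% Poisson interval; light bars are controls and dark bars CPYPP, and the vertical scale differs between panels. The first 6 genes are lower after CPYPP in both lines, LINC02936 is higher in both, and LINC01940 and LINC02119 are almost absent from MDA-MB-231.

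Of the 3 LINC genes higher in MDA-MB-231, the other two were LINC00641 and LINC00513. LINC00641, whose gene lies 2236 bases from HNRNPC, which encodes a protein that binds nuclear pre-mRNA, had 369 and 905 counts in MDA-MB-231, against 238 and 305 in MDA-MB-435. It was 3.35-fold higher in MDA-MB-231 (2.96 to 3.79, adjusted p = 1.81e-93) and 1.65-fold higher in MDA-MB-435 (1.39 to 1.97, adjusted p = 2.86e-08), short of the 2-fold limit. It overlaps no other gene, its promoter window above held none of the motifs searched, and HNRNPC had log2 fold changes of 0.03 and 0.16. LINC00513, a transcript linked to interferon signalling, had 6 and 16 counts in MDA-MB-231, a rise of 3.64-fold (1.35 to 11.4, adjusted p = 0.0126), and 102 and 55 counts in MDA-MB-435, 1.44-fold lower and not called (adjusted p = 0.0575). LINC00513 entered the MDA-MB-231 test through its CPYPP library alone. It overlaps the noncoding gene LINC-PINT and the microRNA genes MIR29A and MIR29B1 on the opposite strand.

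The largest falls in MDA-MB-231, besides LINC00518, LINC02783 and LINC01011, were LINC03002 and LINC01836. LINC03002 had 34 and 7 counts there, 3.56-fold lower (1.55 to 9.51, adjusted p = 0.00255), and 274 and 119 in MDA-MB-435, 1.79-fold lower. It entered the MDA-MB-231 test through its control alone. LINC01836 had 84 and 20 counts, 3.08-fold lower (1.87 to 5.29, adjusted p = 4.14e-06), and 0 and 2 counts in MDA-MB-435, where it was not tested. Of the 12 LINC genes lower in MDA-MB-231, 10 were tested in MDA-MB-435 and all 10 were below control there. So were 51.4% of all tested genes and 79.9% of tested LINC genes. The 10 had a median log2 fold change of -1.12 in MDA-MB-435. However, 11 of the 12 overlapped another gene: the share lower in this line was 11.6% of the 95 tested LINC genes with an overlap and 2.44% of the 41 without, beside 3.09% of all tested genes.

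The largest falls in MDA-MB-435, after LINC02783, were LINC01940, LINC02577, LINC02119 and LINC01145. LINC01940, 8768 bases from TWIST2, a transcription factor gene of mesenchyme, had 138 and 17 counts there and none in MDA-MB-231, and was 6.3-fold lower (3.79 to 11.1, adjusted p = 1.12e-17). LINC02577 had 32 and 4 counts, 6.2-fold lower (2.2 to 24.1, adjusted p = 0.000115), and in MDA-MB-231 it had 132 and 101 counts and a fold change of 1.04 (0.798 to 1.36). LINC02119 went from 393 to 61 counts, 5-fold lower (3.81 to 6.66, adjusted p = 1.35e-42). LINC01145 had 44 and 9 counts, 3.79-fold lower (1.83 to 8.83, adjusted p = 0.000233), and in MDA-MB-231 59 and 39 counts, with a fold change of 0.902 (0.586 to 1.37). LINC01145 is typed as a transcribed unprocessed pseudogene, with the same reserve as for LINC01085. Both LINC02577 and LINC01145 entered the MDA-MB-435 test through the control alone, and the difference between the lines was not tested. LINC02915, the most abundant of the 45, went from 2043 to 451 counts, 3.51-fold lower (3.17 to 3.9).

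The 45 LINC genes lower in MDA-MB-435 lay on 20 chromosomes and had a median log2 fold change of -1.32. Their control counts ranged from 32 to 2043 with a median of 94, and for 12 of them the whole interval lay beyond a 2-fold fall. In MDA-MB-231, 35 of them could be tested: 29 were below control, where 51.2% of all tested genes and 64.7% of tested LINC genes were. Of the 35, 14 had an interval wholly below 1 and 0 an interval wholly above 1, and the median was -0.41. The difference between the lines was not tested. Of the 22 LINC genes with 3 counts or fewer in both MDA-MB-231 libraries, 6 were lower in MDA-MB-435 (27.3%). There, 6.52% of all tested genes and 30.2% of tested LINC genes were lower. The 22 had a median log2 fold change of -0.40. By overlap, 38.3% of the 47 tested LINC genes with no overlap were lower and 26.5% of the 102 with one, beside the same 6.52%.

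The fit over all 4 libraries with the line as a block asks which genes have an average effect of CPYPP over the lines. It does not test whether the lines moved alike. With edgeR's quasi-likelihood test, 10 LINC genes were lower (5.95% of 168, where 2.85% of all tested genes were) and 2 were higher (1.19%, where 4.39% were). The 10 became 25 with total counts, where 1087 of 16801 genes were lower, 23 with DESeq2 size factors, where 729 were, and 26 with all 32210 genes of at least 1 count, where 850 were. In either direction, 45 LINC genes had an unadjusted p under 0.05, and no share over all genes is given for this count. The median common log2 fold change was -0.46 against -0.04 over all genes tested. The fit has 1 residual degree of freedom, and 4 of the 10 (LINC02915, LINC01694, LINC02119 and LINC01940) had 3 counts or fewer in each MDA-MB-231 library, so that their values rest on MDA-MB-435. The other 6 were LINC02783 at -2.32 (SE 0.53, adjusted p = 0.0271), LINC01139 at -1.34 (SE 0.305, adjusted p = 0.0269), LINC01444 at -1.06, LINC02984 at -1.01, LINC01224 at -0.91 and LINC00973 at -0.73. The 2 higher were LINC00641 at 1.22 (SE 0.234, adjusted p = 0.0121) and LINC02693 at 0.73 (SE 0.135, adjusted p = 0.00986). LINC02693 had 724 and 896 counts in MDA-MB-231, against 817 and 1100 in MDA-MB-435, overlaps 10 other annotated genes and is typed protein-coding in GENCODE v29. LINC02984, LINC01224 and LINC02693 fall outside the rule for naming genes and were named after their values were seen.

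Most LINC genes known from cancer studies were not called, as was true of LINC genes and of all genes tested. Of 23 names taken from background knowledge, 11 were among the 168, and LINC00518 was the only one of the 11 called in either line. In MDA-MB-435, 30.2% of tested LINC genes and 6.52% of all tested genes were lower. In MDA-MB-231 these shares were 8.82% and 3.09%. LINC00511, described as a growth-promoting transcript in breast cancer, had 334 and 248 counts in MDA-MB-231, 1.01 times the control (0.856 to 1.2), and 1182 and 581 in MDA-MB-435, 1.58-fold lower (1.43 to 1.75). LINC00963 had 201 and 136 counts and 1025 and 513 counts, and was 1.55-fold lower in MDA-MB-435 (1.39 to 1.73). LINC01638, described in triple-negative breast cancer, had 157 and 81 and 183 and 95 counts, with log2 fold changes of -0.51 and -0.58. LINC00662 went the other way in both lines, with log2 fold changes of 0.42 and 0.76. LINC00460, LINC00467, LINC00707, LINC01116, LINC01234 and LINC00261 had log2 fold changes between -0.47 and 0.59 in MDA-MB-231, and the 5 tested in MDA-MB-435 lay between -0.85 and 0.40.

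Among the 8 highest LINC genes, LINC01444 was 2.48-fold lower in MDA-MB-435 (1.99 to 3.1), with 348 and 109 counts. It overlaps LINC01443 on the opposite strand, which was also lower there, at 105 and 24 counts, and how reads in the overlap were counted is not stated. LINC00973 was 1.86-fold lower in MDA-MB-435 (1.63 to 2.13) and 1.39-fold lower in MDA-MB-231 (1.21 to 1.61), and LINC00472 was 1.72-fold and 1.11-fold lower. LINC02154 and LINC00431 had fold changes of 0.985 (0.896 to 1.08) and 0.952 (0.857 to 1.06) in MDA-MB-435, and LINC01293 was 1.42-fold higher there (1.28 to 1.58).

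The protein-coding genes nearest to the LINC genes were, at the median, close to no change in both lines. The median distance was 19521 bases, and 64 neighbours lay within 10 kb. Of 119 LINC genes whose neighbour was tested in MDA-MB-435, 11 neighbours were lower (9.24%, where 6.52% of all tested genes were) and 3 higher (2.52%, where 3.17% were), with a median log2 fold change of 0.01, and the median over 111 neighbours in MDA-MB-231 was -0.04. The correlation across genes between LINC gene and neighbour was 0.20 (Spearman) in MDA-MB-435 and -0.01 in MDA-MB-231. Of the 37 LINC genes lower in MDA-MB-435 with a tested neighbour, 7 had a neighbour that was lower (18.9%) and 1, LINC01011, a neighbour that was higher. Among the 7 were LINC02783 with PADI1, which had a log2 fold change of -1.74, LINC00518 with TFAP2A, and LINC01521, which lies 431 bases from PATZ1, a zinc finger transcription factor gene. LINC01521 had 91 and 21 counts in MDA-MB-435, a log2 fold change of -1.75, and PATZ1 had 709 and 254 counts, a log2 fold change of -1.11. In MDA-MB-231 LINC01521 had 23 and 15 counts and a log2 fold change of -0.17, while PATZ1 stood at -1.39. LINC01521 was named after its values were seen.

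Structure was weakly related to the fold changes. Across the 149 LINC genes tested in MDA-MB-435 the Spearman correlation of the log2 fold change was 0.12 with exonic length, 0.17 with the number of exons and 0.17 with the summed count, and across the 136 in MDA-MB-231 it was 0.15, 0.17 and 0.11, as descriptions across genes.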

How the data were processed

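Per the labels and the processing notes, poly(A) RNA was sequenced and the authors trimmed the reads with cutadapt 1.9.1, aligned them with HISAT2 2.2.1 and counted them with HTSeq 0.6.1. The deposited values are raw counts per gene with no normalization. The notes name GRCh37.p13, but 58241 of the 58254 identifiers shared with GENCODE v29 have positions that overlap it (GRCh38), as do all 168 LINC genes, so positions here are GRCh38. The strand setting is not given in the sources used here. All 4 growth and treatment texts mention MDA-MB-435 alone, and lines were taken from the cell line label.

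The members and lists were chosen with earlier results of these data known. Within a line, genes that reached 10 counts in either library were compared by a two-sided exact binomial test on TMM-scaled library sizes, with Benjamini-Hochberg adjustment over all of them and 95% Clopper-Pearson intervals. With 1 library per condition this compares libraries. A count of 0 was set to 3 for a fold, given with the lower end of its 95% interval. The common effect used edgeR 4.0.16 after filterByExpr (R 4.3.3), with a biological coefficient of variation of 0.121. DESeq2 1.42.0, Python 3.11.15 and scipy 1.17.1 were also used. Scripts were tested on simulated data. Depth ranged from 17196385 to 22663954 counts, so folds of genes near 10 counts have wide intervals.

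Members named in the text are the largest changes called in both lines (5 each way) and in each line (5 each way), the 8 highest per length, the 5 that most favour each control, those of a list of 23 known names and those at the threshold; others are said to be chosen after their values were seen. Alternatives concerned normalization, filters, the fold limit, an assumed biological variation, overlaps and the test.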

Additional observations from a re-analysis of the deposited data

Results flagged for a closer look

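The fold intervals of 2 LINC genes excluded 1 in opposite directions in the 2 lines, and the difference between the lines was not tested. LINC00513 had a log2 fold change of 1.86 in MDA-MB-231 (6 and 16 counts) and of -0.52 in MDA-MB-435, from 102 to 55 counts. It entered the MDA-MB-231 test through its CPYPP library alone. LINC01963 had 0.50 in MDA-MB-231, from 293 to 304 counts in libraries of unequal depth, and -0.25 in MDA-MB-435, from 347 to 226 counts, where the interval of the fold, 0.707 to 0.996, reaches close to 1.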

How the results depend on the processing

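No paired analysis by replicate number was possible because each group is 1 library and the labels give no such numbers, so the fit of the common effect paired control and CPYPP by line, and no replicate could be left out. In MDA-MB-435, 45 of 149 were lower and 1 higher, where 6.52% of all tested genes were lower. Among members with at least 500 counts, 7 of 42 were lower (16.7%) and 0 higher. Among those overlapping no other gene, 18 of 47 were lower (38.3%) and 0 higher. When cultures were assumed to vary with a coefficient of 0.2, 7 were lower (4.7%, where 0.889% of all genes were) and 0 higher. For 0.4 (chosen after seeing the data) 0 were lower, where 0.00605% of all genes were, and 0 higher. A fold over 4 left 4 and 0. In MDA-MB-231, 12 of 136 were lower and 3 higher, where 3.09% of all tested genes were lower. Under the same settings the lower calls became 2 of 40 (5.0%), 1 of 41 (2.44%), 0 (where 0.262% of all genes were), 0 (where 0.0% were) and 1. The higher calls became 1, 1, 1, 0 and 0. No share over all genes is given for a fold over 4. Over all genes, an assumed coefficient of 0.2 left 147 lower in MDA-MB-435 and 43 in MDA-MB-231. The median log2 fold change moved to -0.28 in MDA-MB-435 with at least 500 counts and to -0.33 in MDA-MB-231 without overlaps. Total counts moved the median of all genes in MDA-MB-435 from -0.02 to -0.16, beside -0.68 for LINC genes. Of the common effect, the 10 lower calls became 25 with total counts (1087 of all genes, from 478), 23 with DESeq2 size factors (729) and 26 with every gene of at least 1 count (850). Among the 53 members without overlaps 3 were lower. Without the block for the line 0 were lower, no gene at all was called and 0 LINC genes had an unadjusted p under 0.05. The 2 higher calls became 4 with DESeq2's Wald test (1263 of all genes), which called 8 lower (868 of all genes) and gave 64 of the 168 no adjusted p. They became 1 of the 53 without overlaps and 0 without the block. The causes were not tested, apart from settings that keep fewer genes. Counting every LINC gene with any count, the shares of counts became 0.123% (control) and 0.112% (CPYPP) for MDA-MB-231, with 0.17% and 0.115% for MDA-MB-435. Of 329 values of named genes under other normalizations and filters, 327 stayed on their side of the call and 0 reversed. A gene that a filter left out has no value among the 329. With 10 counts asked of both libraries, the calls of LINC03002, LINC00518 and LINC00513 in MDA-MB-231 were lost in this way. So were those of LINC02783, LINC02577 and LINC01145 in MDA-MB-435. LINC00973 in MDA-MB-435 was called with total counts, and LINC01311 lost its call with upper-quartile scaling.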
